A study of Mus musculus with 2 samples.

Results

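Collagen hydroxylases and folding factors are the enzymes and chaperones that modify procollagen chains inside the cell before secretion. They were followed here as 9 genes chosen by symbol, P4ha1, P4ha2, P4ha3, P4hb, Plod1, Plod2, Plod3, Serpinh1 and Crtap, out of 15495 genes measured on both arrays. All 9 were measured, through 12 of 26387 usable probes. P4ha1, P4ha3 and Plod1 had 2 probes each, and the other 6 genes had 1. Probes of a gene were joined by its symbol, may read different transcripts of it, and are not replicates.

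The study measured RNA of whole lung on 2 one-colour arrays, 1 from a C57BL6/N mouse sample and 1 from C57BL6/N carrying a transgene that overexpresses heat shock protein 27 (HSP27, gene Hspb1). Mice of both groups were labelled male and 6 weeks old, and both groups had received bleomycin into the trachea at 1.25 mg/kg, with lungs taken at 14 days. Bleomycin injures the alveoli, and scarring follows. The labels do not name the promoter or the species of the transgene, or say whether a sample was 1 animal or a pool, and lung without bleomycin was not analysed here. Each group had 1 array, so the groups could not be tested against each other and no p-value is given. Every difference below is on the log2 scale, transgenic minus C57BL6/N, and its error is technical.

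Hydroxylation of proline lets collagen chains hold together as a triple helix at body temperature. It is done by prolyl 4-hydroxylase, an assembly of a catalytic alpha subunit (P4ha1, P4ha2 or P4ha3) with the beta subunit P4hb, also known as protein disulfide isomerase. Lysyl hydroxylases (Plod1, Plod2, Plod3) prepare lysines for sugar attachment and for the cross-links between mature fibres. These hydroxylases need oxygen, iron, alpha-ketoglutarate and vitamin C. Serpinh1 (HSP47) is a chaperone specific to collagen, and Crtap sits with the prolyl 3-hydroxylase P3h1 and cyclophilin B (Ppib) in a complex that modifies and folds collagen chains. In scarred lung, fibroblasts are the main source of fibrillar collagen.

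Of the 39429 probes on an array, the share well above background was 69.3% for C57BL6/N and 69.4% for the transgenic sample, and no spot was saturated. The 75th percentile of signal, which set the scale of each array, was 1287 and 1426. The Hspb1 probe read 41040 and 53554, a difference of 0.24 with an error of 0.20, and a mouse probe may not report a transgene of another species. Lung markers were present on both arrays, with 9 of 9 alveolar type 2 markers and 13 of 13 endothelial markers measured. The arrays went against their labels in 1 respect. Xist, the RNA of the inactive X chromosome in females, read 521 and 330 at its probes in the C57BL6/N sample, and 2.83 and 3.36 in the transgenic sample, where neither probe was well above background. The Y-linked genes Ddx3y and Eif2s3y and a probe of Uty were well above background on both arrays and higher on the transgenic one. Ddx3y read 508 and 2437 and Eif2s3y 800 and 3338, and the measured Uty probe 17.1 and 72.5. Y-linked Kdm5d (3.81 and 13.6) and the other Uty probe (3.62 and 38.0) did not reach that level in the C57BL6/N sample, but did in the transgenic sample. The log2 differences of Ddx3y and Uty were 2.11 and 1.93, the latter 0.78 with normexp. The C57BL6/N array thus held both Xist signal and signal at some, but not all, of the Y-linked probes. No difference can be given without either array, and the sex-linked mismatch and the transgene cannot be told apart.

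Differences among the 9 genes went in both directions and none reached 2-fold. P4ha3 (0.85) and Crtap (0.69) were at least 1.5-fold higher on the transgenic array, and P4ha1 (-0.84) was at least 1.5-fold lower. The other 6 genes lay within 1.5-fold, from -0.40 for Plod2 to 0.50 for Plod1. The share of members at least 1.5-fold higher was 22.2%, against 10.2% of all measured genes, and the share at least 1.5-fold lower was 11.1%, against 8.31%. With 9 genes, a single gene accounts for 11.1% of the list, so that the lower share lies near that of all genes. The higher share rests on 2 genes, and with normexp on 1. Neither share is read as a result about the members. At 2-fold the count was 0 of 9 in both directions, against 3.81% of all genes higher and 1.87% lower. Among all genes past 1.5-fold, 55.1% were higher, and 66.5% after cyclic loess. The median over the 9 genes was 0.34, beside -0.04 over all measured genes. On the same arrays the median was 0.78 for fibroblast and myofibroblast markers, -0.68 for endothelial and 3.33 for cardiac muscle markers. The part of such cells in these differences was not tested. In whole lung, fewer cells of a type and less RNA per cell cannot be told apart.

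The error of a difference comes from the scanner software, which gave the member probes errors of 10% to 10.6% of their signal. It was 0.20 for the genes with 1 probe and 0.15 for those with 2, where it is the error of the probes' mean. It leaves out disagreement between probes of a gene, such as 0.48 and 1.22 for P4ha3. Spots of probes printed 10 times on each array gave a smaller spread. When such probes were split by brightness into 3 equal groups, the SD of a single-spot difference ran from 0.17 among the dimmest to 0.09 in the middle and 0.08 among the brightest. By the software's error, P4ha1, P4ha3, Plod1 and Crtap differed between the arrays by more than 2 errors, and the other 5 genes by less. Because that error was nearly the same share of signal for every member probe, 2 errors act much like a fixed fold threshold. The threshold was lower for P4ha1, P4ha3 and Plod1, which had 2 probes, though probes are not replicates. The dimmer Plod1 probe alone was at 0.27 (error 0.21), less than 2 errors from 0. Neither error includes the spread between mice.

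**Figure D1:**
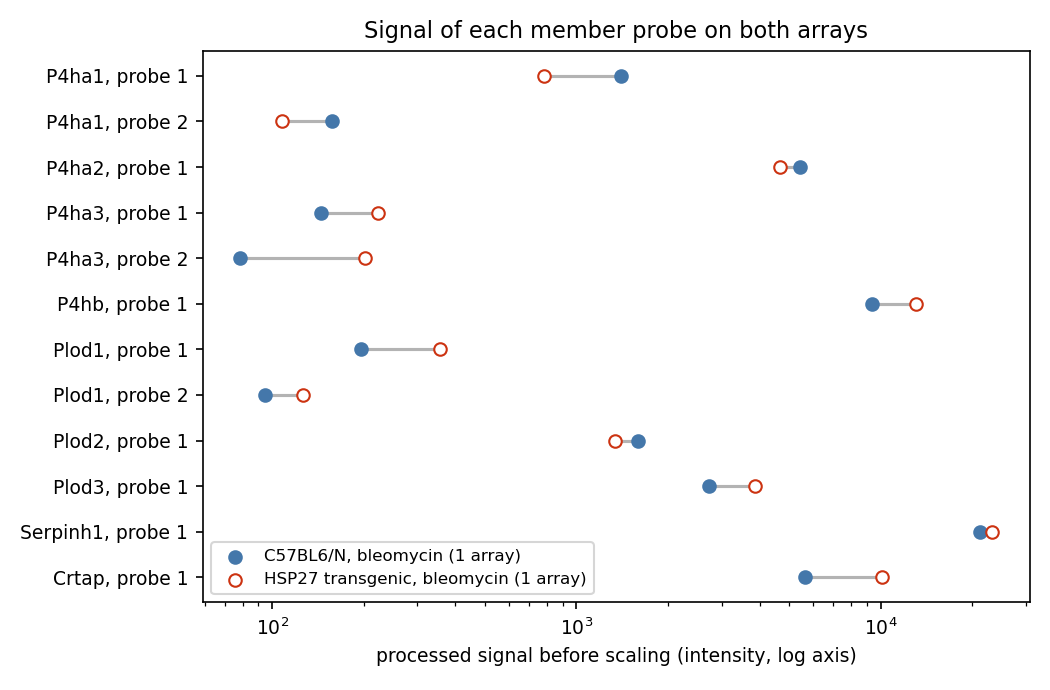
Processed signal (intensity before scaling, log axis) of the 12 member probes on the C57BL6/N array (filled blue) and the transgenic array (open red), with a grey line joining the values of a probe. Both P4ha1 probes, P4ha2 and Plod2 read lower on the transgenic array and the other 8 probes higher. Brightness depends on the probe, so positions cannot be compared between rows.

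The alpha subunits of prolyl 4-hydroxylase differed from each other more than any other related genes among the 9. P4ha1 encodes the form made by most cell types. In C57BL6/N lung its brighter probe read 1400, against 783 in transgenic lung, and its dimmer probe read 157 and 108. Both probes were lower in transgenic lung, at -0.99 and -0.69 after scaling. The gene's mean difference of -0.84 (error 0.15) is 1.79-fold, and 3.39% of all measured genes had a difference as low or lower.

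P4ha2, the alpha subunit known as abundant in cartilage and endothelium, read 5451 and 4662 at its single probe. Its difference was -0.37 (error 0.20), less than 2 errors from 0. P4ha3, which is expressed at low levels in most tissues, was dim on both arrays. Its probes read 144 and 78.5 in C57BL6/N lung and 223 and 202 in transgenic lung. The lowest signals that counted as well above background were 11.9 and 12.5. Both probes were higher in transgenic lung, by 0.48 and 1.22, so the probes agreed in direction but not in size. The mean was 0.85 (error 0.15), or 1.80-fold, and rests on the dimmer probe for its place past 1.5-fold. With the brighter probe alone it was 0.48, and with normexp background correction 0.58, just under 1.5-fold.

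P4hb read 9350 and 13128, a difference of 0.34 (error 0.20). Beside its partner subunit, P4ha1 was lower by 2.26-fold (-1.18, error 0.25), P4ha2 by 1.64-fold (-0.72, error 0.29) and P4ha3 higher by 1.42-fold (0.51, error 0.25). P4ha3 and P4ha1 differed from each other by 1.69 (error 0.21). These figures compare changes within the same pair of arrays and say nothing of how much of each subunit a cell holds.

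Promoter windows are shown for the alpha subunits, because these related genes lay on opposite sides of 0. The windows run from 250 bases before to 50 bases after a transcript start and come from RefSeq on GRCm38.p6, which held 8 of the 9 members. The arrays' own design names the mm9 assembly, so the positions place the printed sequence and no probe. Capitals mark ACGTG and GCGTG on either strand (CACGT and CACGC when read on the other strand), the letters at the core of the site known to bind hypoxia-inducible factors. ACGTG also lies inside the E-box CACGTG.
P4ha1, chr10:59323046-59323345, strand +: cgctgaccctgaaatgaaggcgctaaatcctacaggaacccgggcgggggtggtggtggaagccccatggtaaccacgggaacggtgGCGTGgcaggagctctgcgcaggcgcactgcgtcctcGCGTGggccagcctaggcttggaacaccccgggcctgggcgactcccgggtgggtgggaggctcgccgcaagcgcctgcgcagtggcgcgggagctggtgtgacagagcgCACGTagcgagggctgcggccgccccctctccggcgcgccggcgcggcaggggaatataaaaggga
P4ha2, chr11:54100674-54100973, strand +: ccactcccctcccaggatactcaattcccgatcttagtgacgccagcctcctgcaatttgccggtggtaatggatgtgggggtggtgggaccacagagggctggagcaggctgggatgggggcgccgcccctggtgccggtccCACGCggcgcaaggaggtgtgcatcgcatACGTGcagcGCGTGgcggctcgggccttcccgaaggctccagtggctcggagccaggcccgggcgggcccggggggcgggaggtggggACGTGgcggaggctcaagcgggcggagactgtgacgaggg
P4ha3, chr7:100285270-100285569, strand +: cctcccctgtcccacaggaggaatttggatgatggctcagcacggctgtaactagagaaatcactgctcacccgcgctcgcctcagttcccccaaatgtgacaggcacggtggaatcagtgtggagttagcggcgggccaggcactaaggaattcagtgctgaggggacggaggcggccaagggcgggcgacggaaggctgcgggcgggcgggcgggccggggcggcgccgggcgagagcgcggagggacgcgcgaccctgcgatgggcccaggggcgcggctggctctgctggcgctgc
P4ha1 held ACGTG once, starting 16 bases before the transcript start, and GCGTG at 163 and 126 bases before it. P4ha2 held ACGTG at 78 bases before the start and at 10 bases after it, and GCGTG at 107 and 69 bases before it. P4ha3 held neither. Of the 8 member windows, 7 held at least 1 of the motifs, as did 43.8% of 32851 windows in the RefSeq table. ACGTG alone was in 5 of the 8 and in 19.6% of all windows, and GCGTG in 6 of the 8 and in 32.4%. The genes with positive differences Crtap, Plod1, Plod3 and P4hb also held matches, as did Serpinh1 (-0.02). Among these 8 windows only that of P4ha3 lacked both motifs, so matches and directions could not be compared. Plod2 (-0.40) had no window. Both motifs contain CG, and the member windows held from 16 (Serpinh1) to 32 (P4ha1) CG pairs. All windows of the RefSeq table were not matched to them in CG pairs. The shares therefore do not show that the motifs are more common in members than in like windows. Such letters are a description and not a bound site.

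Lysyl hydroxylases were also on both sides of 0, all within 1.5-fold. Plod2, the lysyl hydroxylase of the collagen ends, whose products give the stable cross-links of scar tissue, read 1591 and 1339 at 1 probe. Its difference was -0.40 (error 0.20). Plod1, which acts on lysines of the helix, was dim, with probes at 195 and 94.9 in C57BL6/N lung and at 357 and 126 in transgenic lung. Both were higher, by 0.72 and 0.27, and the mean of 0.50 (error 0.15) was past 1.5-fold with the brighter probe alone (0.72) and after cyclic loess (0.60).

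Plod3, which also adds glucose to galactosyl-hydroxylysine, read 2738 and 3867 and was at 0.35 (error 0.20). Against Plod2, the change in Plod1 was higher by 0.89 (error 0.25) and that in Plod3 by 0.75 (error 0.29). Plod1 and Plod3 differed from each other by 0.15 (error 0.25), less than that error. Fkbp10, a prolyl isomerase that works with Plod2, was at 0.53, which puts the change in Plod2 at -0.93 (error 0.29) relative to it. Colgalt1, which adds galactose to the hydroxylysines, was at -0.03.

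Serpinh1 had the smallest difference of the 9 genes. It read 21300 and 23291, and after scaling the difference was -0.02 (error 0.20), with 51.9% of all measured genes at or below it. Type I collagen, whose chains HSP47 binds, was higher on the same array, with Col1a1 at 0.80 and Col1a2 at 0.88. Relative to Col1a1, the change in Serpinh1 was -0.82 (error 0.29), a ratio of 1.76-fold, and relative to Col1a2 it was -0.90.

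At its single probe, Crtap read 5650 in C57BL6/N lung and 10116 in transgenic lung. The difference of 0.69 (error 0.20) is 1.62-fold, and 7.76% of all measured genes had a difference as high or higher. Its partners in the 3-hydroxylation complex were also above 0. P3h1 was at 0.65 from probes at 0.34 and 0.97, and Ppib at 0.33. Crtap and P3h1 differed by 0.04 (error 0.25), and Crtap and Ppib by 0.36 (error 0.29). The value of P3h1 was under 1.5-fold with its brighter probe alone (0.34) and with normexp (0.48).

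**Figure D2:**
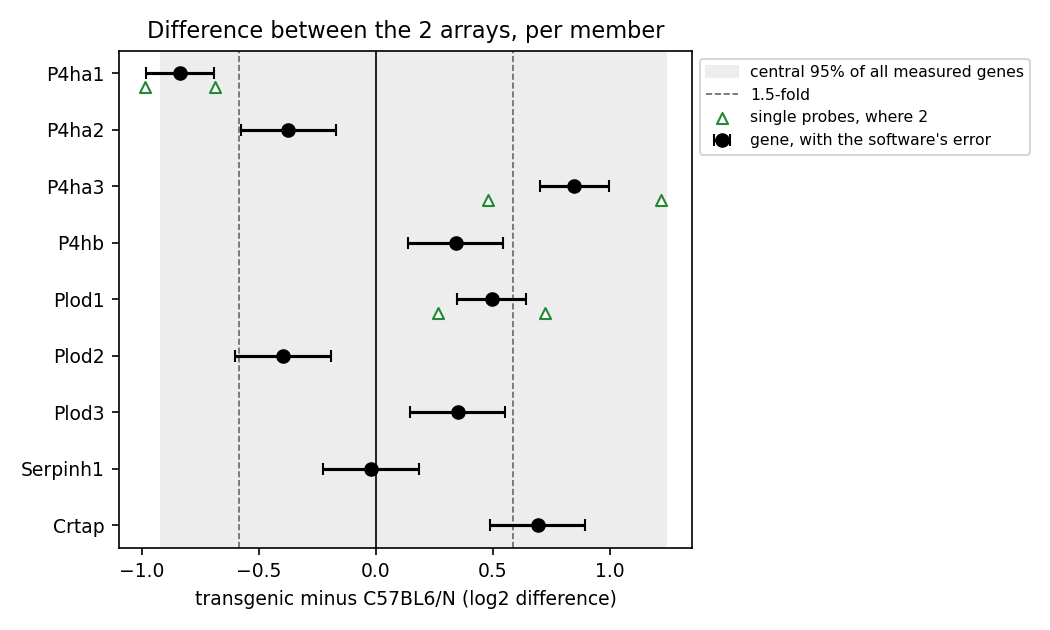
Log2 difference of each gene, transgenic minus C57BL6/N (black points), with bars of 1 software error, single probes where a gene had 2 (green triangles), dashed lines at 1.5-fold and grey shading over the central 95% of all measured genes (-0.92 to 1.24). All 9 genes lie inside the shading, and P4ha3, Crtap and P4ha1 lie past the dashed lines.

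Set against the collagen chains they modify, the 9 genes ran from P4ha3 at the top to P4ha1 at the bottom. Relative to Col1a1, the change was 0.05 for P4ha3 and -0.11 for Crtap, both smaller than the error. It was -0.30 for Plod1, -0.45 for Plod3 and -0.46 for P4hb, each within 2 errors. Serpinh1 followed, then P4ha2 at -1.17, Plod2 at -1.20 and P4ha1 at -1.64, all 4 by more than 2 errors. Relative to Col3a1, the type III chain, which was at 0.32, P4hb (0.02) and Plod3 (0.03) matched most closely, and P4ha1 was at -1.16 (error 0.25). Of the 8 pairs of neighbours in this order, 5 differed by less than 1 error, namely each step from P4ha3 through Crtap, Plod1 and Plod3 to P4hb, and P4ha2 with Plod2. The steps from P4hb to Serpinh1 (0.36, error 0.29), from Serpinh1 to P4ha2 (0.35, error 0.29) and from Plod2 to P4ha1 (0.44, error 0.25) exceeded 1 error, and 0 of the 8 exceeded 2 errors.

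Other genes of the pathway were taken as lists by step. Of 16 further genes that process collagen inside the cell, 1 was at least 1.5-fold higher (P3h1) and 2 lower, with a median of 0.11. Colgalt2, a galactosyltransferase related to Colgalt1, was at -1.15, and P3h2, a prolyl 3-hydroxylase, at -0.62, which is within 1.5-fold after median scaling (-0.57), quantile normalization (-0.58), cyclic loess (-0.51) and normexp (-0.46). Of 15 genes for export of collagen from the endoplasmic reticulum (ER), 3 passed 1.5-fold upward and 0 downward (median 0.20). Kdelr3, a receptor that returns escaped ER proteins, was at 1.42. Sec13, a subunit of the vesicle coat, read 1026 and 2276. Of 17 general folding factors of the ER, 0 passed 1.5-fold either way and the median was -0.05. Among them the HSP70-type chaperone Hspa5 was at -0.28 and Hsp90b1 at -0.33.

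Substrates and later steps had higher median differences than the 9 members, though not all had higher summed levels. Of 10 measured fibrillar chains, 7 passed 1.5-fold upward and 1 downward, with a median of 0.85. The largest were Col2a1, the cartilage collagen, at 1.95 from a dim probe (17.7 and 76.2), and Col5a3 at 1.73. With normexp Col2a1 was within 1.5-fold (0.52). The lower chain, Col11a2 (-0.65), was dim too and was within 1.5-fold with normexp (-0.15) and cyclic loess (-0.53). Among 22 other proteins with triple helices, 8 were higher and 3 lower (median 0.48), led by the complement proteins C1qb (2.41) and C1qa (1.74), and with the basement membrane chains Col4a4 at -0.97, Col4a5 at -0.85 and Col4a1 at 0.49. With its brightest probe alone Col4a4 was within 1.5-fold (-0.55). C1qb and C1qa are also counted among the macrophage markers below. Of 15 genes that act on collagen outside the cell, 8 were higher and 1 lower (median 0.60), with the fibril-binding proteoglycans Fmod at 1.90 and Lum at 1.19, the cross-linking oxidase Lox at 0.75 and the procollagen peptidase enhancer Pcolce2 at -0.81. All these counts stand beside the 10.2% and 8.31% of all genes. Summed levels, formed as for the markers below, were 126 for C57BL6/N and 206 for transgenic lung in the fibrillar chains. They were 350 and 335 in the other triple-helix proteins, and 305 and 298 in processing outside the cell.

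**Figure D3:**
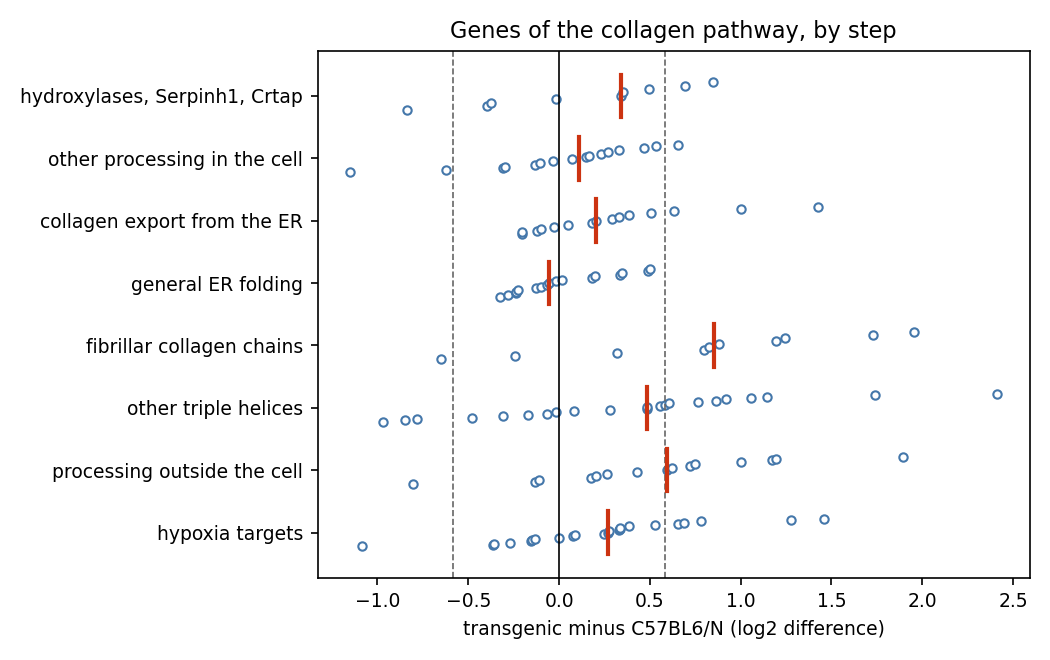
Log2 difference, transgenic minus C57BL6/N, of each measured gene (open points) in the 9 members and in 7 lists of related genes, with the list median as a red bar and dashed lines at 1.5-fold. The members' median of 0.34 lies below those of the fibrillar chains (0.85) and of processing outside the cell (0.60).

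P4ha1, P4ha2 and Plod2 are known targets of hypoxia-inducible factors, and all 3 were below 0. P4ha2 (-0.37) and Plod2 (-0.40) lay within 1.5-fold and less than 2 errors from 0. Other known targets lay on both sides of 0. Of 23 measured, 5 were at least 1.5-fold higher and 1 lower, against 10.2% and 8.31% of all measured genes. Of these targets, 16 were above 0 and 7 below, and the median was 0.27. With normexp, 3 were at least 1.5-fold higher. Ankrd37, an ankyrin repeat protein, was at 1.46, the oxygen-sensing prolyl hydroxylase Egln3 at 1.28 and the glucose transporter Slc2a1 at 0.78. Egln3 was dim (29.7 and 84.0 at its brighter probe) and within 1.5-fold with normexp (0.40). The glycolytic enzyme Pgk1 was at 0.33, and Vegfa, the vascular growth factor, at -1.08. Vegfa is also counted among the alveolar type 1 markers.

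Markers of several cell types and tissues differed between the same arrays. The counts of all these marker lists stand beside 10.2% of all measured genes at least 1.5-fold higher and 8.31% lower. Of 14 fibroblast and myofibroblast markers, 9 passed 1.5-fold upward and 0 downward (median 0.78), led by Cthrc1 (1.92) and Itga11 (1.55). Their summed level, in multiples of the 75th percentile with the brightest probe of each gene, was 134 for C57BL6/N and 223 for transgenic lung. The 5 of these markers within 1.5-fold were Pdgfra (0.06), Pdgfrb (0.09), Thy1 (0.35), Tnc (0.37) and Postn (-0.31). On the other side, 8 of 13 endothelial markers (median -0.68, Tie1 at -1.10 and Cldn5 at -1.02, sums 292 and 181) and 4 of 9 alveolar type 1 markers (median -0.56, Cav1 at -1.08, sums 250 and 176) were at least 1.5-fold lower and 0 higher. Alveolar type 2 markers had a median of -0.43 with 0 of 9 past 1.5-fold (sums 625 and 490). Macrophage markers had 8 of 13 higher and 2 lower (median 0.70, sums 77.6 and 125), with Arg1 at 2.35, Siglecf at -0.83 and Marco at -0.78.

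Markers of cardiac muscle, fat, basal airway cells, and cartilage and bone also differed between the arrays. Of 13 cardiac muscle markers, 11 were higher and 1 lower (median 3.33), and the transgenic array alone detected 5 more (sums 6.77 and 42.7). Myh6 was at 7.09, Nppa at 5.55 and Myh7 at -0.97. Of 7 adipose markers, 6 were higher and 0 lower (median 2.17, Cfd at 9.62 and Retn at 5.27, sums 3.74 and 34.1), with 4 more on the transgenic array alone. Of 5 measured basal airway markers, 5 were higher by the mean of their probes (median 3.57, Krt5 at 5.87 and Krt15 at 4.59, sums 3.09 and 5.99). The probes of Trp63 disagreed in direction (-0.23 and 2.22), and its brighter one (3758 and 3563) makes up most of the C57BL6/N sum. With the stricter filter on dim probes, which dropped the other Trp63 probe and Krt14, 3 markers were at least 1.5-fold higher. Krt17 was detected in transgenic lung alone. Cartilage and bone markers, of which 5 of 13 were measured, were dim (sums 0.17 and 0.33), with Sox9 at 1.52, Comp at 1.49 and Hapln1 at -0.98, and Matn1, Matn3 and Cnmd not well above background on either array. With normexp Sox9 (0.53) and Hapln1 (-0.49) were within 1.5-fold and Comp was at 0.65, and the stricter filter on dim probes left 0 of these markers measured. The part of any of these cells or tissues in the differences of the hydroxylases, Serpinh1 and Crtap was not tested.

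**Figure D4:**
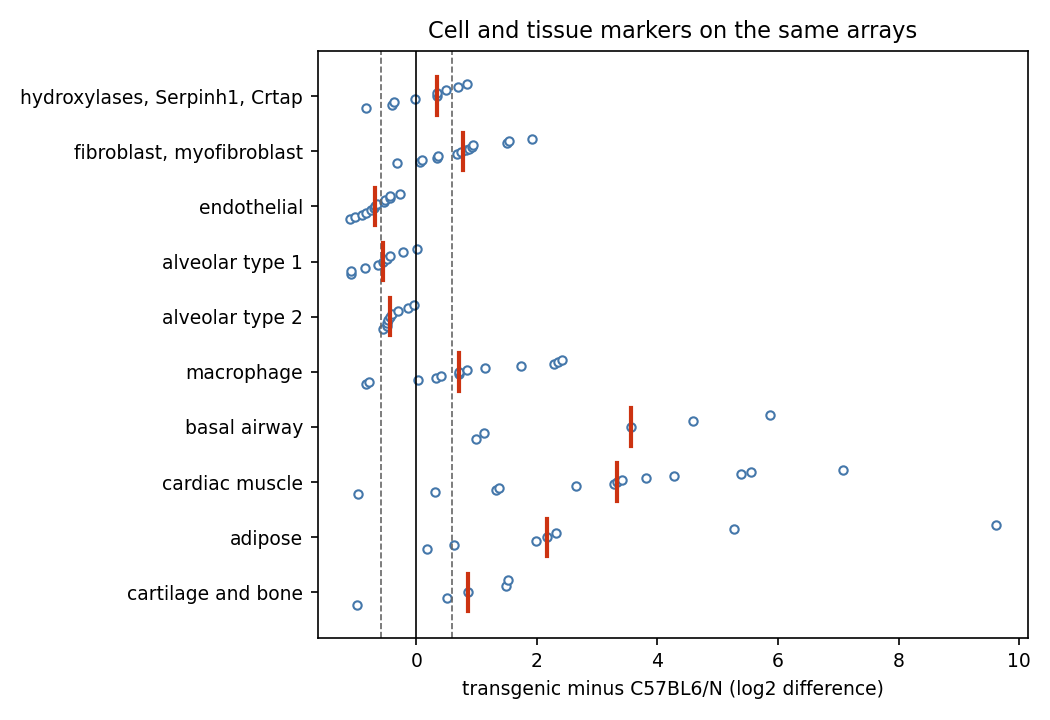
Log2 difference, transgenic minus C57BL6/N, of the 9 members and of the measured genes in 9 lists of cell and tissue markers (open points), with list medians as red bars and dashed lines at 1.5-fold. The members, from -0.84 to 0.85, span less than the fibroblast, cardiac, adipose and basal airway lists.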

How the data were processed

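RNA of whole lung from 2 groups was measured on 1 one-colour Agilent array each. Per the file headers, the authors' deposited array files hold an intensity for each spot, made with Agilent Feature Extraction 11.5.1.1, with background subtracted and trends removed within the array, an intensity error per spot and quality flags (other columns). The deposited table of the series is intensity on a linear scale. All 39022 and 39020 of its single-spot probes equalled the processed signal within 0.1%, and the column medians were 111 and 118. There was no centring.

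Control and outlier spots were left out, spots of a probe averaged on the log2 scale, and each array's 75th percentile over non-control probes subtracted. Usable probes were well above background in at least 50% of spots and unsaturated on both arrays, and probes of a gene were averaged. RefSeq accessions without version gave symbols to 27508 of 39429 probes (69.8%). Members and lists were chosen with earlier results of these data known, and some genes stand in more than 1 list. Besides the members, the genes named were 15 fixed genes and up to 2 highest and 2 lowest genes past 1.5-fold per list. Genes given as detected on 1 array or on neither were named after their values were seen. So were Eif2s3y, Krt14, Trp63 and the fibroblast and myofibroblast markers within 1.5-fold. No genes were named for a like pattern, since 2 arrays give 1 difference per gene. The steps were tested on simulated data. The number of arrays limits the precision. Python 3.11.15, numpy 2.4.6, pandas 2.3.3 and matplotlib 3.10.9 were used, with R 4.3.3 and limma 3.58.1 for normexp and cyclic loess.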

Additional observations from a re-analysis of the deposited data

How the results depend on the processing

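The differences of single members were computed under 10 alternatives (normexp with offset 50, median scaling, the 75th percentile over detected probes, quantile normalization, cyclic loess, no filter and a stricter filter on dim probes, outlier spots kept, the brightest probe, and the deposited table). Of 90 such values, 83 moved by less than the software error and 7 by more, all 7 in P4ha1, P4ha3 or Plod1, and 0 turned a difference past 1.5-fold to the other direction. Many of these values had little room to move. For genes with 1 probe, the filter changes and the brightest probe gave the main value again. The deposited table holds the same signal, and median or percentile scaling shifts all genes alike. The count of 83 is therefore not a measure of robustness. P4ha1 ranged from -0.99 to -0.68, P4ha3 from 0.48 to 0.95, Plod1 from 0.34 to 0.72, Crtap from 0.63 to 0.75 and Serpinh1 from -0.05 to 0.04. The members' median ranged from 0.30 to 0.40. The number of members at least 1.5-fold higher was 1 with normexp, where P4ha3 was at 0.58, and 3 with cyclic loess or the stricter filter, where Plod1 was at 0.60 and 0.72. With the brightest probe it was 2, but these were Crtap and Plod1. At 2-fold, 0 members were higher and 0 lower. Over all genes, 1582 were at least 1.5-fold higher and 1287 lower, against 980 and 682 with normexp and 2526 and 2080 without the filter. Normexp left out 7 spots whose local background reached their signal. No paired analysis was possible because each group has 1 array. Values of dim probes (P4ha3, Plod1 and the second of P4ha1) are limited by their low signal over background.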
